A study of Arabidopsis thaliana with 12 samples.

Results

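The beta-glucosidase genes of Arabidopsis thaliana followed here in seedling roots were BGLU27, BGLU16, BGLU15, PYK10, BGLU42, BGLU44, BGLU47, BGLU25, BGLU32 and BGLU41. They were taken by gene symbol and probe set, and all 10 were found among the 22746 probe sets tested. The set was chosen by gene family with the array values of all 4 groups known, and BGLU27 was selected on its higher level with cellobiose. The values of BGLU27 are therefore given as a description with no test, and the tests of the other 9 are not independent of the choice. Roots came from 7-day-old Col-0 seedlings grown through nylon mesh, which lets roots be taken apart from shoots. RNA was taken 25 min after the start of treatment with no elicitor (control), cellobiose, chitin or OGs (oligogalacturonides), with 3 biological replicates in each of the 4 groups and 1 Affymetrix ATH1 array per replicate. The design text calls the chitin treatment chito-oligomers. No transgene or mutation is named for any group, a sample pools the roots of many seedlings, and elicitor doses were not analysed here.

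Beta-glucosidases of glycoside hydrolase family 1 (GH1) cut a terminal glucose, or a related sugar, from small molecules. In plants their substrates are mostly glucosides of defence compounds, hormones, flavonols, coumarins and lignin precursors, which are kept apart from the enzymes until cells are damaged or the compounds are exported. Some members act on oligosaccharides released from the cell wall, and the myrosinases of the same family act on glucosinolates. In roots of Arabidopsis the best known member is PYK10 (also BGLU23), the main protein of the ER body, a spindle-shaped compartment derived from the endoplasmic reticulum. Cellobiose, the disaccharide unit of cellulose, is itself a beta-glucoside, whereas chito-oligomers and OGs are built from N-acetylglucosamine and galacturonic acid.

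Array values are log2 probe set intensities after GCRMA, a background correction and normalization made by the authors. They ran from 2.77 to 14.57 over the 12 arrays, and array medians lay between 6.50 and 6.60. Across probe sets, arrays of the same group had correlations of 0.986 to 0.996. Control replicate 1 was the control array least like its group, with a mean correlation of 0.987 against 0.991 and 0.992 for the other controls. OGs replicate 3 was as far from its group, at 0.987. A level says nothing about another gene's level, since probe sets differ in brightness. Of the tissue markers listed, 2 of 12 for root and 1 of 8 for shoot had a named probe set. The root hair expansin genes EXPA7 and EXPA18 lay between 8.87 and 10.37. RCA, which encodes rubisco activase of green tissue, lay between 9.63 and 11.53, above the array medians. Whether the RCA transcript in these root samples came from shoot tissue was not tested. In such bulk samples, fewer cells of a type and less RNA per cell cannot be told apart.

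BGLU27, whose substrate is not stated here because its role is not well established, was the member with the largest difference. On the log2 scale its 3 control arrays read 3.95, 4.00 and 3.78, and its cellobiose arrays 7.44, 7.47 and 6.51. The chitin arrays read 4.38, 4.47 and 4.30, and the OGs arrays 4.53, 4.18 and 4.40. Every cellobiose array lay above every other array, with a gap of 1.98 to the highest OGs array, and replicate 3 was the lowest of the cellobiose arrays. The chitin and OGs arrays also lay above all controls, by gaps of 0.30 and 0.18, and overlapped each other.

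In means, BGLU27 stood at 3.91 ± 0.11 in controls, 7.14 ± 0.55 with cellobiose, 4.38 ± 0.08 with chitin and 4.37 ± 0.18 with OGs (SD, n = 3). The cellobiose level was 9.37-fold the control level, 6.75-fold the chitin level and 6.82-fold the OGs level. With chitin it was 1.39-fold and with OGs 1.37-fold the control level. The difference between cellobiose and control was 3.49, 3.47 and 2.72 log2 in the 3 replicate pairs. That between chitin and control was 0.44, 0.47 and 0.52, and that between OGs and control 0.58, 0.18 and 0.62. BGLU27 had the highest difference between cellobiose and chitin of all 22746 probe sets (rank 1), and rank 5 for cellobiose and OGs. Its difference between cellobiose and control was exceeded by many others (rank 110), and for chitin and OGs against control it ranked 1391 and 1336. These ranks use the values that led to its choice and are a description.

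**Figure D1:**
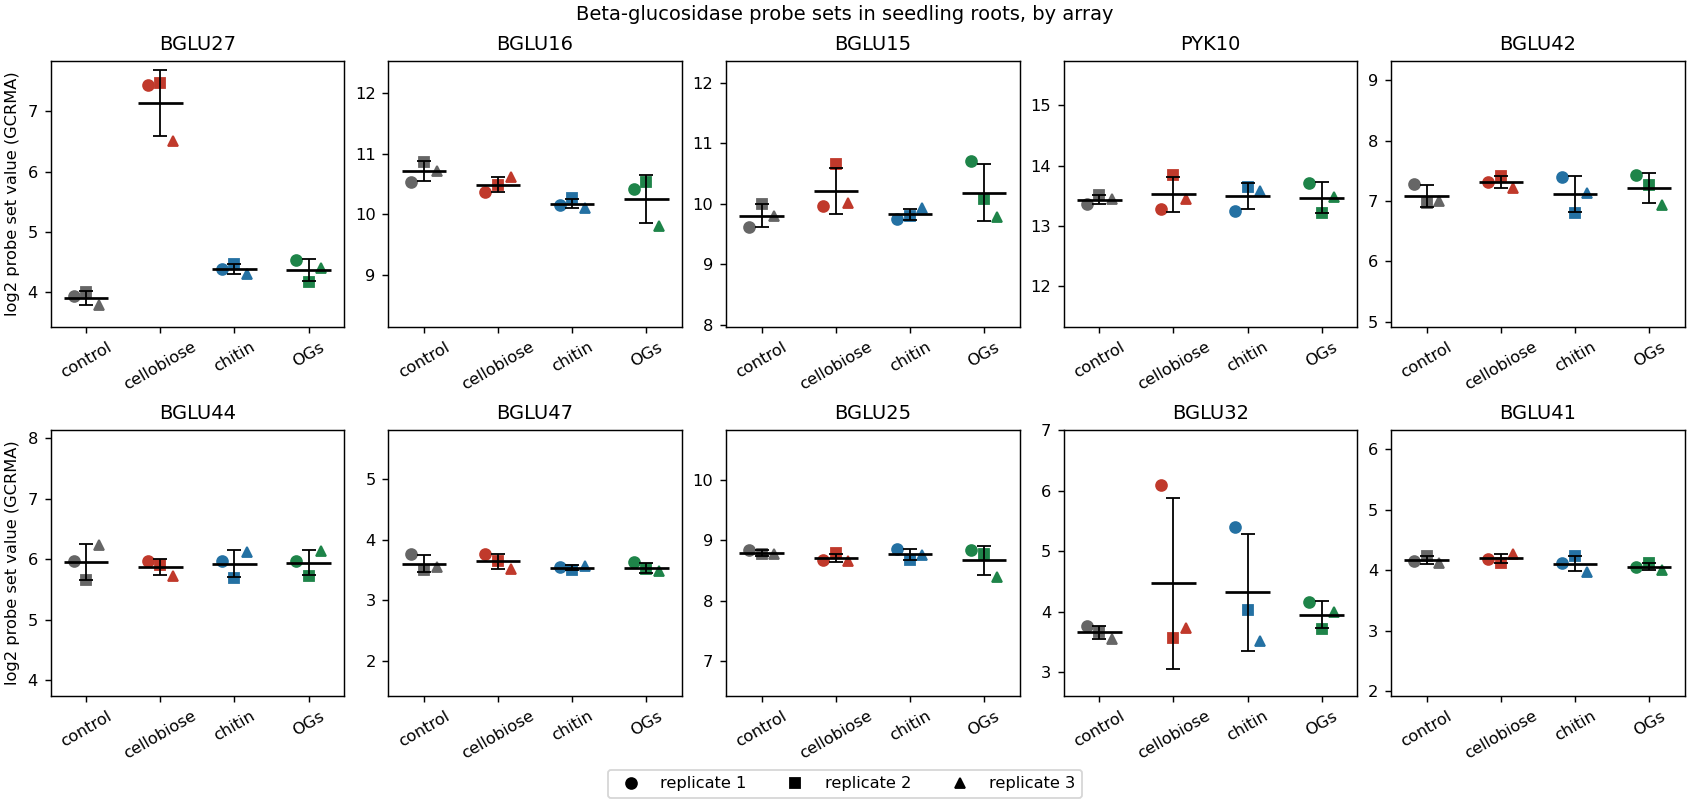
Log2 probe set values (y axes, each spanning the same range of 4.4 log2 units) of the 10 beta-glucosidase genes on each array, by group, with replicate numbers as marker shapes, the group mean as a bar and 1 SD as whiskers (n = 3). BGLU27 is separated from all other groups with cellobiose, from 6.51 to 7.47, whereas BGLU32 is high on 2 arrays of replicate 1, at 6.10 and 5.40.

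The difference between cellobiose and control for BGLU27 was 3.17 without control replicate 1, and lay between 3.06 and 3.60 over all alternative settings. With OGs it was 0.46, and 0.64 without OGs replicate 2 and 0.30 without OGs replicate 3. The control level lies near the lower end of the scale and was not shown to be above background, since the table holds no detection calls. RCA was lower with cellobiose in the same samples, at 9.86, 10.93 and 9.63 against 11.53, 10.48 and 11.33 in controls, a difference of -0.97 log2 (limma adjusted p = 0.130), and -1.68 without replicate 2 (adjusted p = 0.00105). Over all arrays RCA differed from controls by -0.27 with chitin and -0.40 with OGs. Cellobiose differed from chitin by -0.70 and from OGs by -0.57, and RCA passed in no comparison. In replicate 2 RCA was higher with each elicitor, at 10.93, 11.05 and 10.86 with cellobiose, chitin and OGs against 10.48 in control. Without replicate 2 RCA was also lower than in controls with chitin, by -0.69 (adjusted p = 0.0200), and with OGs, by -0.79 (0.0211). It was then lower with cellobiose than with chitin, by -0.99 (0.0202), or OGs, by -0.89 (0.0343). Its part in the level of BGLU27 was not tested. By replicate, the cellobiose arrays read 7.44, 7.47 and 6.51 for BGLU27 and 9.86, 10.93 and 9.63 for RCA.

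The other 9 members were then tested with limma over all 22746 probe sets, at an adjusted p under 0.05. None of the 9 passed with cellobiose, where 8.64% of all probe sets passed, with chitin, where 8.8% passed, or with OGs, where 4.06% passed. At an unadjusted p under 0.05 the numbers were 0, 1 and 1 of 9, against 21.6%, 23% and 16.8% of all probe sets. Ordinary t statistics also called 0 of 9 in each. The 3 comparisons share the control arrays. Median differences of the 9 from control were 0.03, -0.03 and -0.01 log2 with cellobiose, chitin and OGs, beside -0.03, -0.04 and -0.03 over all probe sets. None of the 9 passed between cellobiose and chitin (background 0.0176%), cellobiose and OGs (0.044%) or chitin and OGs (0.106%). An unadjusted p under 0.05 was reached by 0 of 9 in each of these, where 5.68%, 5.44% and 6.36% of all probe sets reached it, and ordinary t statistics called 0 of 9.

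**Figure D2:**
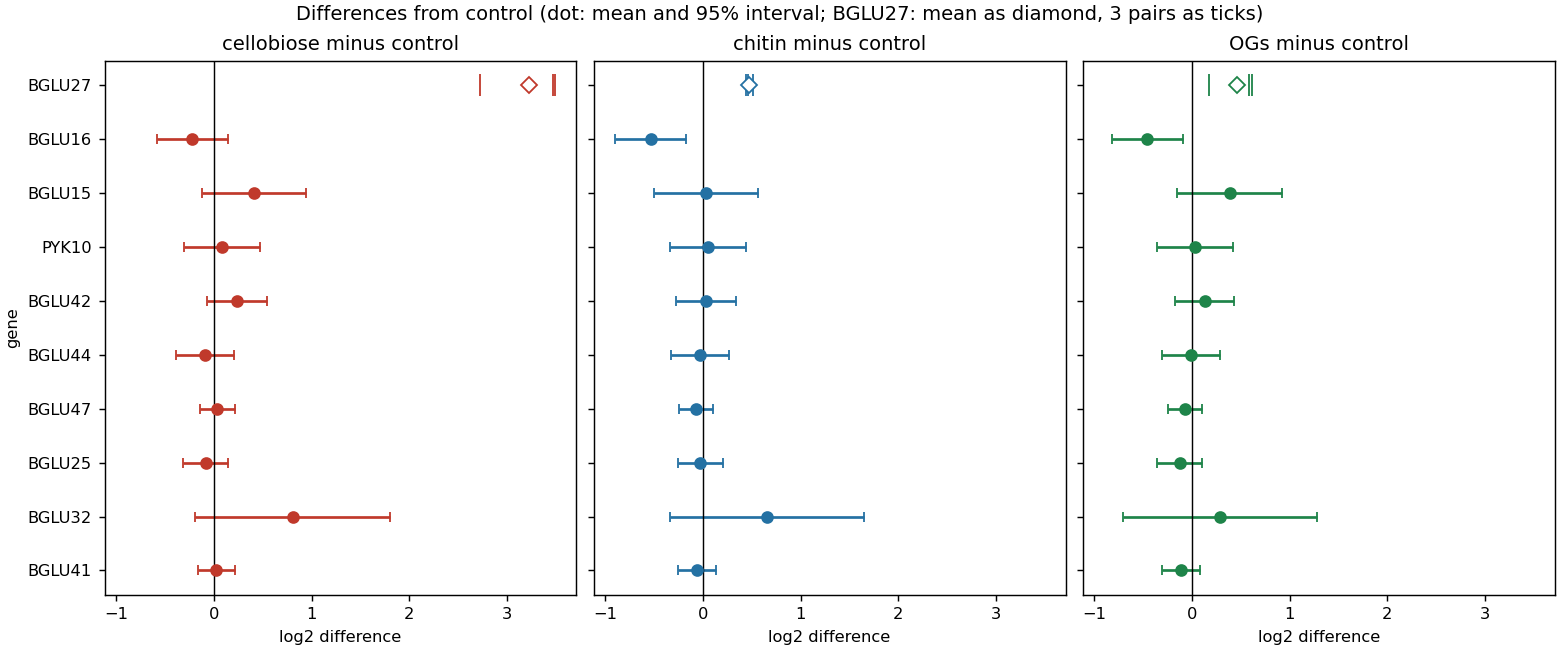
Log2 difference from control (x axes) with cellobiose, chitin and OGs for the 10 genes (y axis). Dots are limma means with 95% intervals, and BGLU27, which was not tested, is drawn as its mean (diamond) with its 3 replicate pairs as ticks. The intervals of BGLU16 with chitin, -0.90 to -0.17, and with OGs, -0.82 to -0.10, leave out 0 but did not pass after adjustment over all probe sets.

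BGLU16 lies next to BGLU27 on chromosome 3 in the RefSeq annotation of TAIR10.1. It is a close relative of BGLU15, and its own substrate is not well established. BGLU16 read 10.54, 10.87 and 10.72 in controls and 10.36, 10.49 and 10.62 with cellobiose. It read 10.16, 10.26 and 10.11 with chitin and 10.42, 10.53 and 9.80 with OGs. All chitin and all OGs arrays lay below all controls, with OGs by a gap of only 0.01, and the cellobiose arrays overlapped the controls. The members other than BGLU27 whose arrays did not overlap the controls were thus 0 of 9 with cellobiose, 1 of 9 with chitin and 1 of 9 with OGs, where 25.2%, 26.9% and 18.8% of all probe sets did not overlap.

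The differences of BGLU16 from control were -0.53 log2 with chitin (95% interval -0.90 to -0.17, limma adjusted p = 0.0770) and -0.46 with OGs (-0.82 to -0.10, adjusted p = 0.178). With cellobiose the difference was -0.22 (-0.58 to 0.14, adjusted p = 0.517). The chitin difference passed in 2 of 22 alternative settings, when only chitin and control arrays were fitted (adjusted p = 0.0272) and without OGs replicate 3 (adjusted p = 0.00650). The OGs difference was -0.22 without OGs replicate 3. The cellobiose difference turned to 0.16 with spike-in scaling and ordinary t statistics (adjusted p = 0.705). Over all 12 arrays the values of BGLU16 and BGLU27 correlated at 0.03. The gene on the other side of BGLU27, AT3G60110, lay between 4.42 and 4.90 on all 12 arrays, with 4.74 to 4.86 in the cellobiose arrays.

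BGLU15 hydrolyses glucosides of flavonols. It read 9.62, 9.995 and 9.79 in controls and 9.76, 9.80 and 9.93 with chitin, and these groups overlapped. With cellobiose it read 9.96, 10.65 and 10.02, and with OGs 10.71, 10.08 and 9.78. A single array stood highest in each of the latter groups, replicate 2 of cellobiose and replicate 1 of OGs. The difference from control was 0.41 log2 with cellobiose (95% interval -0.12 to 0.94, limma adjusted p = 0.378), 0.03 with chitin and 0.38 with OGs (-0.15 to 0.92, adjusted p = 0.483). Without cellobiose replicate 2 the cellobiose difference was 0.20, and without OGs replicate 1 the OGs difference was 0.04. BGLU15 and BGLU16 were the 2 members besides BGLU27 whose cellobiose arrays lay above all chitin arrays, 2 of 9 where 10.1% of all probe sets did not overlap in either direction. Between cellobiose and OGs and between chitin and OGs 0 of 9 were free of overlap, where 8.92% and 9.61% of all probe sets were. Their differences between cellobiose and chitin were 0.38 (-0.15 to 0.91) and 0.32 (-0.05 to 0.68), and neither passed. BGLU28, which follows BGLU15 on chromosome 2, lay between 3.43 and 3.86 on all arrays.

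PYK10 encodes the ER body beta-glucosidase that acts on the coumarin glucoside scopolin and on indole glucosinolates. It read 13.36, 13.51 and 13.45 in controls, 13.28, 13.85 and 13.44 with cellobiose, 13.25, 13.65 and 13.58 with chitin, and 13.71, 13.21 and 13.49 with OGs. All 4 groups overlapped. The differences from control were 0.08 log2 with cellobiose (95% interval -0.31 to 0.47, limma adjusted p = 0.859), 0.06 with chitin (-0.33 to 0.45) and 0.03 with OGs (-0.36 to 0.42). These intervals leave room for a change of up to 1.39-fold upward with cellobiose. The spread between replicates was wider with elicitors, at an SD of 0.29, 0.21 and 0.25 with cellobiose, chitin and OGs, than in controls at 0.08, and this was not tested. PYK10 stood close to the top of the range of the arrays, and whether its probes were saturated was not tested.

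Other genes of the ER body and of the protein complex that PYK10 forms after cell damage were set beside it. Named probe sets were found for 6 of 15 listed genes, and 0 rose and 0 fell in any of the 6 comparisons (limma). Their median differences from control were 0.17, 0.17 and 0.06 log2 with cellobiose, chitin and OGs. NAI2, which is needed for ER bodies to form, lay between 11.75 and 12.41. JAL33, JAL34 and JAL22, jacalin-related lectins, lay at 11.68 to 12.66, 13.04 to 13.52 and 8.33 to 10.49. JAL22 was 0.84 log2 higher with chitin than in controls, with an interval of -0.50 to 2.17 (adjusted p = 0.452).

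These genes moved with PYK10 from array to array within groups. Measured as deviations from the group mean over 12 arrays, the correlation with PYK10 was 0.93 for JAL22, 0.91 for JAL33, 0.89 for NAI2 and 0.78 for JAL34. It was -0.19 for NAI1, a transcription factor required for ER bodies and for PYK10 expression, and -0.16 for JAL23, which lay between 3.33 and 3.61 throughout. NAI1 and JAL23 were named after their values were seen. Cellobiose replicate 2, chitin replicate 2 and OGs replicate 1 were the high arrays. There JAL22 stood at 10.49, 10.19 and 10.37, while it lay between 8.33 and 9.55 on the other 9 arrays. The high array was thus not the same replicate number in each group. The deviations of BGLU15 correlated at 0.73 with those of PYK10 and 0.85 with those of JAL34. BGLU15 was high in cellobiose replicate 2 and OGs replicate 1 but not in chitin replicate 2, where it read 9.80, below the 9.93 of chitin replicate 3. The points share the array and its normalization, so these values are a description.

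**Figure D3:**
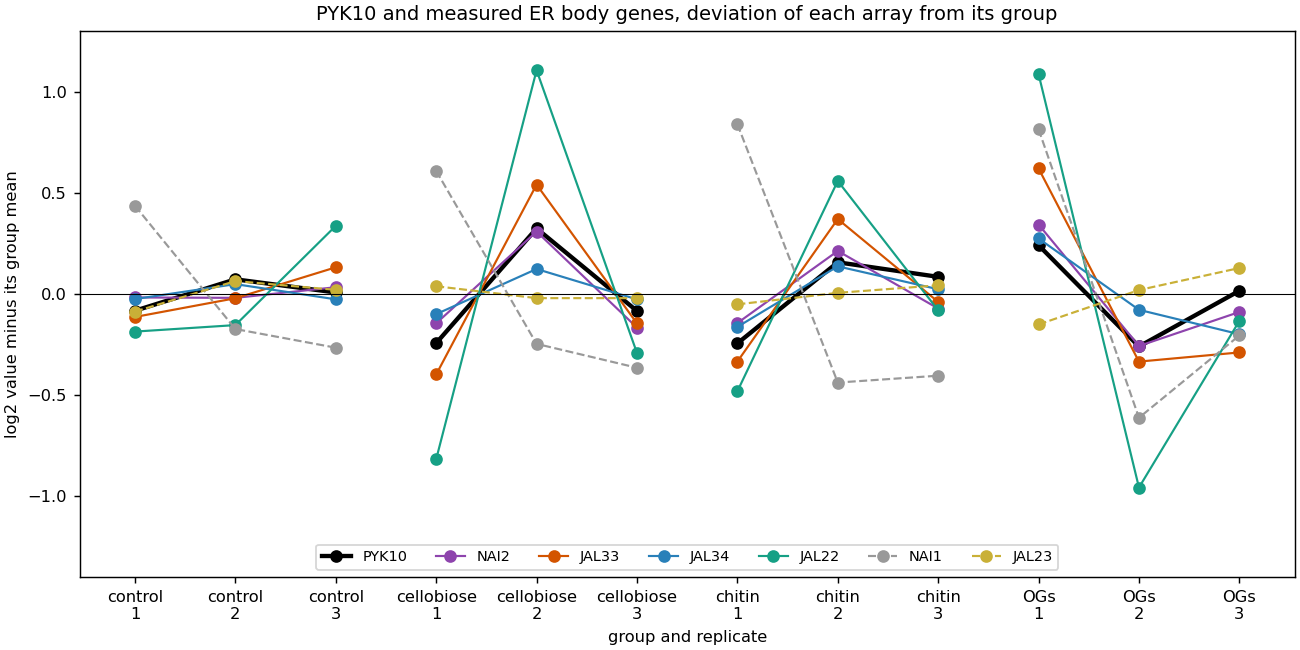
Deviation of each array from its group mean (y axis, log2 units) for PYK10 and the 6 measured ER body genes, by group and replicate (x axis). Solid lines, PYK10, NAI2, JAL33, JAL34 and JAL22, peak together in cellobiose replicate 2, chitin replicate 2 and OGs replicate 1, and dashed lines are NAI1 and JAL23. NAI1 is highest in replicate 1 of each group.

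BGLU42 releases scopoletin from its glucoside for export under iron limitation and is needed for systemic resistance induced by root bacteria. It read 7.28, 6.96 and 6.99 in controls, 7.32, 7.41 and 7.22 with cellobiose, 7.40, 6.80 and 7.14 with chitin, and 7.43, 7.27 and 6.94 with OGs. The cellobiose arrays were the least spread (SD 0.10) and overlapped the controls through control replicate 1 alone. The difference from control was 0.24 log2 with cellobiose (95% interval -0.07 to 0.54, limma adjusted p = 0.372), 0.03 with chitin and 0.13 with OGs. Of the coumarin list 3 of 7 genes were measured, and 0 rose and 0 fell in any comparison. AT3G13610, also F6'H1, the enzyme that commits to scopoletin synthesis, lay between 8.88 and 9.01 in controls. It reached 9.30 to 9.97 with cellobiose, 9.02 to 9.39 with chitin and 9.04 to 10.80 with OGs. No elicitor group overlapped the controls, though only narrowly with chitin and OGs. Of all probe sets 25.2%, 26.9% and 18.8% did not overlap the controls with cellobiose, chitin and OGs. The differences of AT3G13610 from control were 0.61, 0.27 and 0.77 log2 (limma adjusted p = 0.387, 0.714 and 0.325), and OGs replicate 3 was the highest array. They were 0.30 with cellobiose without cellobiose replicate 2, 0.04 with chitin without control replicate 3, and 0.22 with OGs without OGs replicate 3. These fits kept the replicate block, so the value of 0.04 also drew on the high OGs replicate 3. It does not show that the chitin difference rests on control replicate 3. AT3G12900 and AT1G28680, also in this list, lay at 4.02 to 4.46 and 9.40 to 9.95.

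BGLU44 is active on mannose oligosaccharides, and it follows BGLU43 on chromosome 3. It read 5.97, 5.65 and 6.24 in controls, 5.98, 5.91 and 5.72 with cellobiose, 5.98, 5.68 and 6.11 with chitin, and 5.98, 5.73 and 6.13 with OGs. The groups overlapped, and the differences from control were -0.09, -0.03 and -0.01 log2 with cellobiose, chitin and OGs (limma adjusted p = 0.803, 0.926 and 0.986). The 4 arrays of replicate 1 held the same BGLU44 value within 0.001 log2, which was so for 6 of 22746 probe sets. BGLU43 lay between 3.40 and 3.72 on all arrays.

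BGLU47 belongs to the branch of the family that includes BGLU45 and BGLU46, enzymes that split glucosides of lignin precursors. BGLU47 lay between 3.47 and 3.77 on all 12 arrays, with differences from control of 0.03, -0.07 and -0.07 log2. The 95% intervals were -0.14 to 0.21 with cellobiose and -0.25 to 0.11 with both chitin and OGs. Near the lower end of the scale a change can be hidden by background. BGLU46 rose with chitin, from 10.06, 9.70 and 9.53 in controls to 10.40, 10.66 and 10.31. That is a difference of 0.69 log2 (95% interval 0.30 to 1.09, adjusted p = 0.0400), in 3 of 3 pairs. BGLU46 was also above all controls with cellobiose, by 0.56 (adjusted p = 0.0897), and with OGs, by 0.63 (adjusted p = 0.0886), without passing. The cellobiose difference passed when only the 2 groups compared were fitted (adjusted p = 0.0271) and without OGs replicate 3 (0.0457). The chitin call ended in 13 of 22 alternative settings, among them no replicate block (adjusted p = 0.05002) and without control replicate 1 (0.0612), control replicate 2 (0.122), control replicate 3 (0.200), chitin replicate 2 (0.172), chitin replicate 3 (0.104), cellobiose replicate 3 (0.0526) or OGs replicate 1 (0.0551). BGLU45 lay between 7.73 and 8.49. The 3 measured genes for glucosyltransferases that make such glucosides, UGT72E1, UGT72E2 and UGT72E3, passed in no comparison, but UGT72E3 passed as lower with OGs without OGs replicate 2 (-0.68, adjusted p = 0.0480).

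BGLU25, BGLU32 and BGLU41 have less well known substrates. BGLU25 lay between 8.67 and 8.86 on all arrays except OGs replicate 3, at 8.40, and its intervals from control stayed within -0.36 and 0.21 log2. BGLU41 lay between 3.97 and 4.27, with intervals from control within -0.30 and 0.22.

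BGLU32 had the widest spread of the 9. It read 3.77, 3.67 and 3.55 in controls, 6.10, 3.57 and 3.74 with cellobiose, 5.40, 4.04 and 3.52 with chitin, and 4.16, 3.71 and 3.99 with OGs. Replicate 1 was the highest array in all 4 groups, by far with cellobiose and chitin. The differences from control were 0.81 log2 with cellobiose (95% interval -0.19 to 1.80, limma adjusted p = 0.345) and 0.66 with chitin (-0.34 to 1.65, adjusted p = 0.427). Without replicate 1 in all groups they were 0.04 and 0.17. Without control replicate 1 alone they were 0.37 and 0.22. That fit kept the replicate block and so also drew on the high replicate 1 arrays of the other groups. As control replicate 1 was the highest control, the smaller values do not show that the differences rest on it. BGLU31, the gene before BGLU32 on chromosome 5, lay between 3.57 and 3.89 and had no such high arrays. NAI1 and UGT74B1, a glucosinolate synthesis gene, were likewise highest in replicate 1 of each group, with means over the 4 groups of 7.55 and 10.33 in replicate 1, 6.51 and 9.26 in replicate 2, and 6.57 and 9.29 in replicate 3.

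Among themselves the 10 members varied with little in common. Over their 45 pairs the correlation of deviations from the group mean had a median of 0.12 and ran from -0.85, for BGLU41 and BGLU44, to 0.84, for BGLU25 and BGLU42. BGLU41 and BGLU44 have narrow ranges of 0.30 and 0.59 log2, and so have BGLU25 and BGLU42, of 0.46 and 0.63.

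Outside the 10, 12 of 38 listed GH1 genes had a probe set of their own in the annotation used. Of these, 1 of 12 rose with chitin, where 8.8% of all probe sets passed. This was BGLU46, whose call ended in 13 of 22 alternative settings, and 0 passed with cellobiose, with OGs or between elicitors. Their median differences from control were -0.03, 0.01 and -0.03 log2 with cellobiose, chitin and OGs. On all 12 arrays 9 of these 12 genes stayed under 5 on the log2 scale, as did 2 of the 10 members (BGLU41 and BGLU47) and 31.1% of all probe sets. BGLU24 was an exception, with 6.12 in control replicate 1 and between 4.22 and 5.11 on the other arrays. Like BGLU32, BGLU24 was highest in replicate 1 of each group. Its means over the 4 groups were 5.22, 4.34 and 4.45 in replicates 1, 2 and 3. BGLU19 and BGLU40 lay at 3.89 to 4.54 and 3.75 to 4.32. With cellobiose the differences of the 12 ran from -0.22 to 0.56 log2, against 3.23 for BGLU27.

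**Figure D4:**
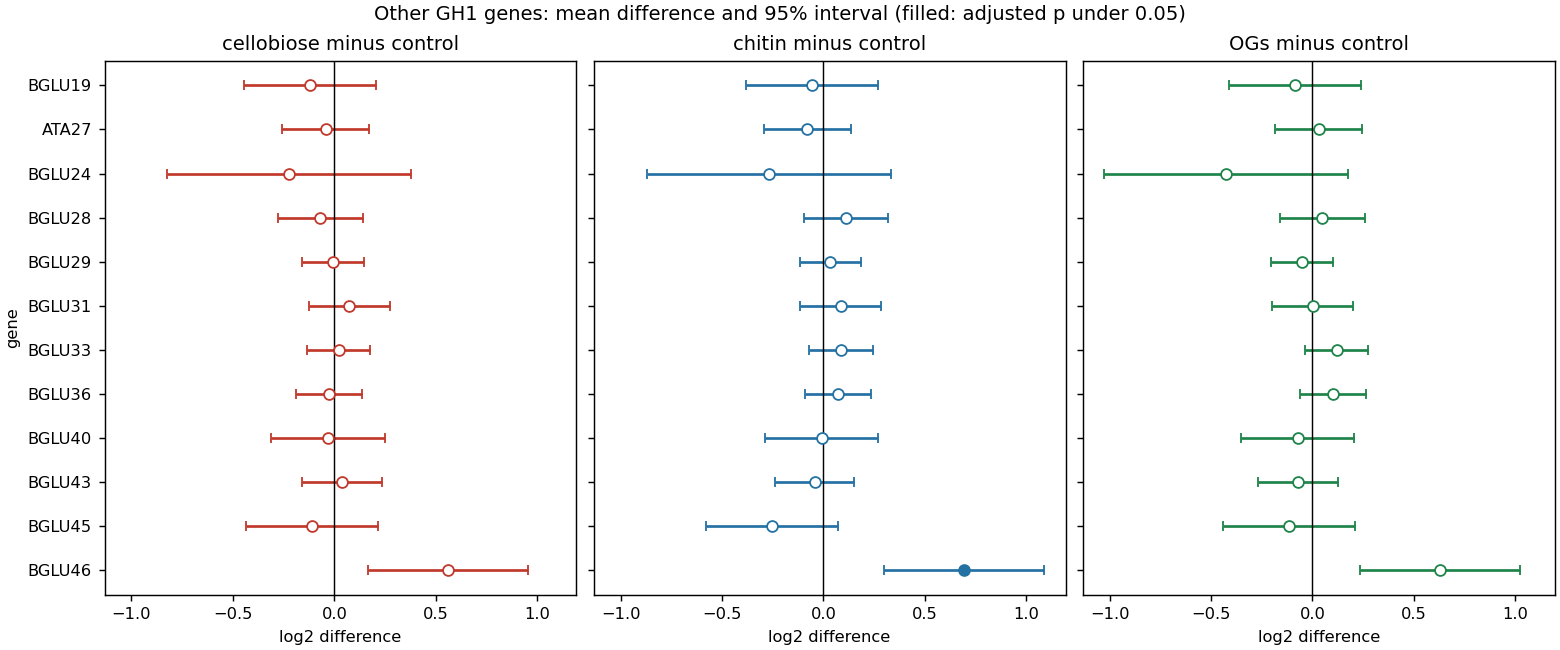
Log2 difference from control (x axes) with 95% intervals from limma for the 12 other measured GH1 genes (y axis), with cellobiose, chitin and OGs. Filled dots passed at an adjusted p under 0.05, which is BGLU46 with chitin alone. Most means lie within -0.3 and 0.2 of 0, and the cellobiose range ends at 0.56.

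Of 10 listed genes for enzymes and a receptor that act on glucan, xyloglucan or cellulose fragments, 4 were measured and 1, AT4G20860, rose with each elicitor. It read 10.36, 9.68 and 9.40 in controls, and 10.999 to 11.28 with cellobiose, 10.78 to 10.91 with chitin and 11.05 to 11.79 with OGs. Its differences were 1.35, 1.01 and 1.56 log2 (limma adjusted p = 0.00842, 0.0306 and 0.00841), so that, unlike BGLU27, its cellobiose arrays did not stand above those of OGs. The calls of AT4G20860 did not hold with ordinary t statistics (adjusted p = 0.0599, 0.111 and 0.0847). They also ended with chitin without control replicate 2 (0.112), control replicate 3 (0.157), chitin replicate 2 (0.149), chitin replicate 3 (0.102) or cellobiose replicate 1 (0.0529), and with OGs without control replicate 2 (0.0547) or control replicate 3 (0.0532) or in a fit limited to the arrays of OGs and control (0.0936). Without replicate 2 in all groups the adjusted p was 0.0856, 0.211 and 0.0568 with cellobiose, chitin and OGs, and without replicate 3 it was 0.0862 with chitin and 0.0967 with OGs. AT5G20950, AT5G20940 and AT1G56145 passed in no comparison. UGT74B1, the 1 measured gene of 14 listed for indole glucosinolates, passed in none either. It passed as higher with cellobiose under spike-in scaling with ordinary t statistics (0.58, adjusted p = 0.0246). That scaling moved the median difference over all probe sets from -0.03 to 0.34 log2. RCA, described above, passed in no comparison over all arrays but was lower with all 3 elicitors without replicate 2. The part of RCA in the rises of BGLU46 and AT4G20860 was not tested.

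The named probe sets outside the 10 members with the highest Pearson correlation to BGLU27 over the 12 arrays were AT4G19720 (r = 0.92), AT2G15340 (0.90), AT1G53110 (0.88), AT4G17215 (0.87), AT1G70990 (0.87), AT5G66390 (0.86), AT5G65240 (0.86) and AT3G02360 (0.85). In the same order the rank correlations (Spearman) were 0.90, 0.64, 0.82, 0.70, 0.75, 0.35, 0.87 and 0.82. AT4G19720 stood at 4.13 to 4.41 in controls, 5.17 to 6.05 with cellobiose, 4.49 to 4.81 with chitin and 4.35 to 4.75 with OGs. AT1G53110 stood at 4.66 to 4.75 in controls and 6.19 to 6.53 with cellobiose, but also at 5.34 to 5.80 with chitin and 5.02 to 5.55 with OGs. AT5G66390, also PRX72, a class III peroxidase, was at 9.56 to 9.78 in controls, 10.15 to 10.57 with cellobiose, 9.41 to 9.54 with chitin and 9.07 to 9.60 with OGs. In each of the 8 every cellobiose array lay above all other arrays, and since they were picked for likeness this is a description. The difference of AT4G19720 between group means was smaller than that of BGLU27, from 4.28 in controls to 5.51 with cellobiose.

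**Figure D5:**
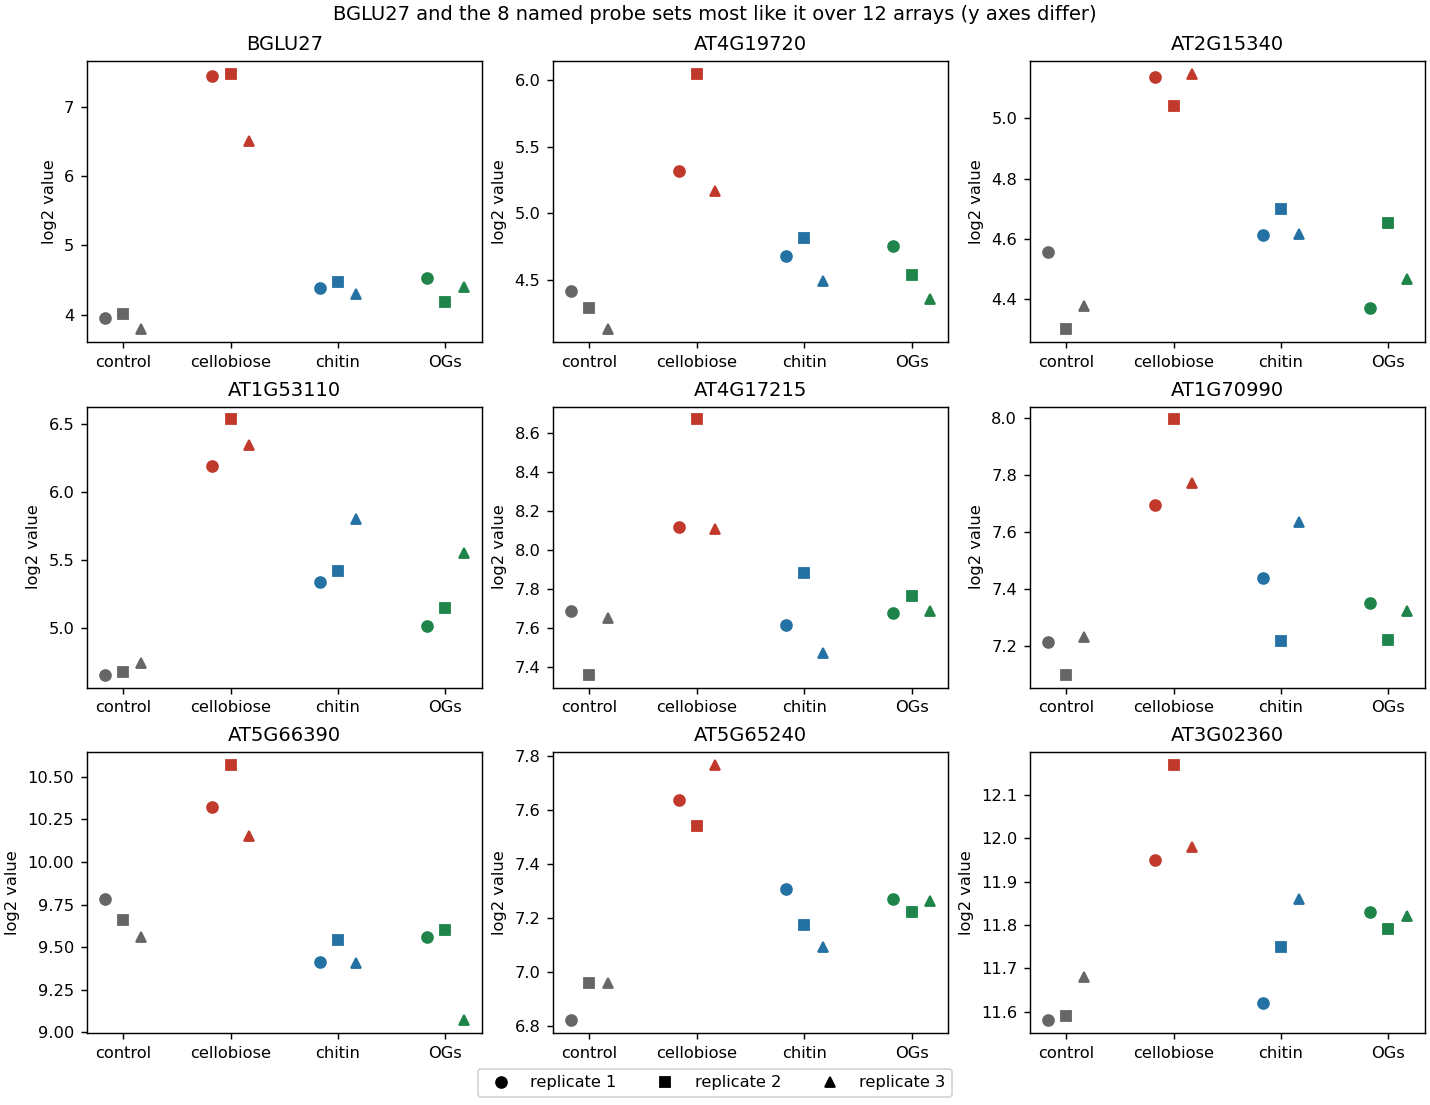
Log2 values (y axes, which differ in range) of BGLU27 and of the 8 named probe sets with the highest Pearson correlation to it over 12 arrays, by group, with replicate numbers as marker shapes. In every panel the 3 cellobiose arrays are the highest, and BGLU27 spans 3.78 to 7.47 where AT4G19720 spans 4.13 to 6.05.

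For PYK10 the most like were JAL33 (r = 0.90), AT4G15680 (0.90), AT4G10550 (0.90), EXPB3 (0.90), a beta-expansin, and JAL22 (0.89). AT4G15680 lay between 3.87 and 4.47, near the lower end of the scale. EXPB3 lay between 5.76 and 7.29, with 6.36 ± 0.20 in controls and 6.58 ± 0.63 with cellobiose (SD, n = 3). The search took in all named probe sets. JAL33 and JAL22 are also in the ER body list, so their likeness to PYK10 is not a separate result from the one above.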

How the data were processed

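Root RNA on 12 ATH1 arrays was analysed from the deposited table of 22810 rows, of which 64 Affymetrix control probe sets were kept apart. The deposited values are on the log2 scale and were made by the authors with GCRMA, per the design text of the series. Affymetrix Expression Console is named, with no version, per the submitters' processing notes. Gene names came from the platform annotation in GEO and from RefSeq (TAIR10.1): 13513 of 22746 (59.4%) have 1 gene, 503 have several and were not named, and 8730 are unnamed here. Genes whose probe sets are unnamed were not analysed here. Member sequences were not used here.

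One limma 3.58.1 model (R 4.3.3) held treatment and the replicate number as a block, on all 12 arrays (6 residual and 3.09 prior degrees of freedom). Tests were two-sided with Benjamini-Hochberg adjustment over all 22746 probe sets. The script was also run on simulated data with independent noise and no shared replicate effect, so that run does not test the block. The block follows the design text, which takes ratios per sample pair. The members, gene lists and naming rule were chosen with earlier results of these data known. All members were named, and of each list the genes that passed plus up to 4 others with the highest mean. For likeness, 8 probe sets for BGLU27 and 5 for PYK10 were taken. Alternatives left out the block, the other groups, dim probe sets (mean under 4) or each array or replicate number. Fits without a single array kept the block, so their differences also depend on the other groups' arrays of the same replicate number. Others changed the moderation, centred the arrays on their median, or combined spike-in scaling with ordinary t statistics. Depth does not apply to arrays, whose number limits the precision.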

Additional observations from a re-analysis of the deposited data

How the results depend on the processing

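Under 22 alternatives the number of the 9 members other than BGLU27 that passed stayed at 0 with cellobiose, with OGs and between elicitors. With chitin it was 1 (BGLU16) when only the 2 groups compared were fitted, with fewer arrays, and 0 to 1 over the fits that left out arrays, with 1 without OGs replicate 3. The cause was not tested. Over the members' 1314 alternative values, BGLU27 included, 105 changed sign, all of them differences that were not called or, for BGLU27, not tested. As none of the 9 was called in the main fit, there was no call to reverse. The background moved more: against control 1966, 2002 and 924 probe sets passed with cellobiose, chitin and OGs, with 651 to 2161, 730 to 2313 and 47 to 1369 under alternatives. Between elicitors 4, 10 and 24 passed, with 0 to 90, 0 to 86 and 0 to 105.

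Same-numbered arrays deviated from their group means with correlations of -0.17 to 0.59, over 0.1 in 11 of 18 pairs, and 5 of 12 arrays were closest to their own number. All 6 pairs of replicate 1 lay at 0.30 to 0.59, so the replicate 1 arrays deviated together. All 3 pairs of control and chitin were over 0.1 (0.43, 0.16 and 0.36), which held for no other pair of groups. With no replicate block 0 of the 9 members passed in any comparison, and the only call lost among the genes named was that of BGLU46. Scaling to 24 poly-A spike-in probe sets moved the median difference over the whole table to 0.34, 0.17 and 0.20 log2 with cellobiose, chitin and OGs, and BGLU27 at 3.60, 0.68 and 0.69. With BGLU47 left out as dim, 0 of 8 passed.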
